A study of Mus musculus with 6 samples.

Results

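The nuclear genes of the mitochondrial respiratory chain and ATP synthase were described in BaF3 cells, a mouse line that depends on interleukin-3, after transfection with a NOTCH1 plasmid. The genes were chosen by symbol alone: symbols that start with Nduf, Cox4, Cox5, Cox6, Cox7, Cox8, Uqcr or Atp5, and the 4 succinate dehydrogenase genes Sdha, Sdhb, Sdhc and Sdhd, with pseudogenes left out. This gave 90 genes of the 18946 in the deposited values, and all 90 were measured in all 6 libraries. By textbook role 36 belong to complex I, 4 to complex II, 8 to complex III, 17 to complex IV and 15 to the ATP synthase (complex V), and 10 are assembly or accessory factors.

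RNA was sequenced from cells sorted 24 h after nucleofection. The ICN group received pmax-Clover-ICN, a plasmid that joins the green fluorescent protein Clover to the intracellular part of NOTCH1; the CTdel group received pmax-Clover-CTdel, named in the series design as the ICN mutant; the con group received pmax-Clover with no NOTCH1 insert. All 3 groups grew in RPMI medium with 10% serum and 2 ng/mL mouse interleukin-3, and each group had 2 libraries. The labels do not say what CTdel stands for, which species the insert came from or what promoter drives it, nor do they say that the 2 libraries of a group came from separate cultures, so spreads and p-values below measure these libraries only.

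The inner mitochondrial membrane carries the chain. Complexes I and II pass electrons from NADH and succinate to coenzyme Q, complex III passes them to cytochrome c and complex IV to oxygen; complexes I, III and IV pump protons as they do so, and ATP synthase uses the returning protons to make ATP. Most subunits are nuclear genes whose proteins are imported, and a small catalytic core is encoded by mitochondrial DNA. The mitochondrial genes have 0 rows in the tables used here, so the nuclear side alone is described.

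Nuclear respiratory factor 1 (NRF-1) is a transcription factor long known to bind promoters of respiratory chain genes, and its palindrome was looked for in the RefSeq promoters (GRCm38.p6, 250 bases before to 50 after the start). Promoters were matched for 75 of the 90 genes. This palindrome, the letters GCGCA followed by their reverse complement TGCGC, was found in 7 of these genes, or 9.33%, against 2.60% of the tested genes with a promoter and 1.07% of all genes in the promoter table. It is shown with 10 bases on each side, 5′ to 3′ on the strand of the gene, with the motif in capitals, because it was the promoter motif with the largest ratio to the tested genes' share.
Atp5g2, chr15:102671070-102671099, minus strand: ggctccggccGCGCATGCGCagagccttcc
Atp5k, chr5:108434430-108434459, minus strand: tttcactgcgGCGCATGCGCctttctggct
Cox6a1, chr5:115349101-115349130, minus strand: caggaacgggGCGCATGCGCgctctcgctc
Ndufa11, chr17:56717692-56717721, plus strand: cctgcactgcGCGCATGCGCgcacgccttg
Ndufaf4, chr4:24897960-24897989, plus strand: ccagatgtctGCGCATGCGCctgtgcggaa
Ndufaf5, chr2:140170652-140170681, plus strand: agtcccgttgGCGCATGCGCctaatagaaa
Uqcrc1, chr9:108936668-108936697, plus strand: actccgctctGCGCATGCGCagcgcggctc

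The motif lies before the start in Atp5g2, Atp5k, Cox6a1, Ndufa11 and Ndufaf4 and after it in Ndufaf5 and Uqcrc1. The shorter form GCATGCGC, searched on both strands and contained in the longer one, was in 16.0% of the 75 genes, against 6.47% of tested genes. The YY1 letters AAGATGGCG, searched on both strands, were in 10.7% of them and in 4.06% of tested genes. Other promoter letters were near the background or under it: the ETS letters CCGGAAGT were in 6.67% against 10.3%, the CCAAT box in 44.0% against 43.5% and TATAAA in 8.0% against 8.35%, all on both strands. Median GC content was 58.3% in these promoters and 60.7% in those of tested genes. These are matches of letters with no test, and they say nothing about which factor is bound.

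Most of these genes were abundant, apart from the tissue isoforms and assembly factors described below. The median of the 90 genes' mean FPKM (fragments per kilobase of transcript, scaled to library size, which corrects for length) was 91.1, against 14.3 for the 11050 genes tested. Of the 90, 79 averaged at least 10 FPKM and 41 at least 100 FPKM. Together the 90 genes held 2.46% and 2.24% of the summed FPKM in the ICN libraries, 2.36% and 2.28% in the CTdel libraries, and 2.32% and 2.69% in the con libraries. In each of ICN and CTdel, replicate 1 lay between the con values and replicate 2 under both. Levels of the 90 genes on a log2 scale correlated between libraries with Pearson's r of 0.967 to 0.997 over the 15 pairs of libraries, which share each gene's length and annotation.

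**Figure D1:**
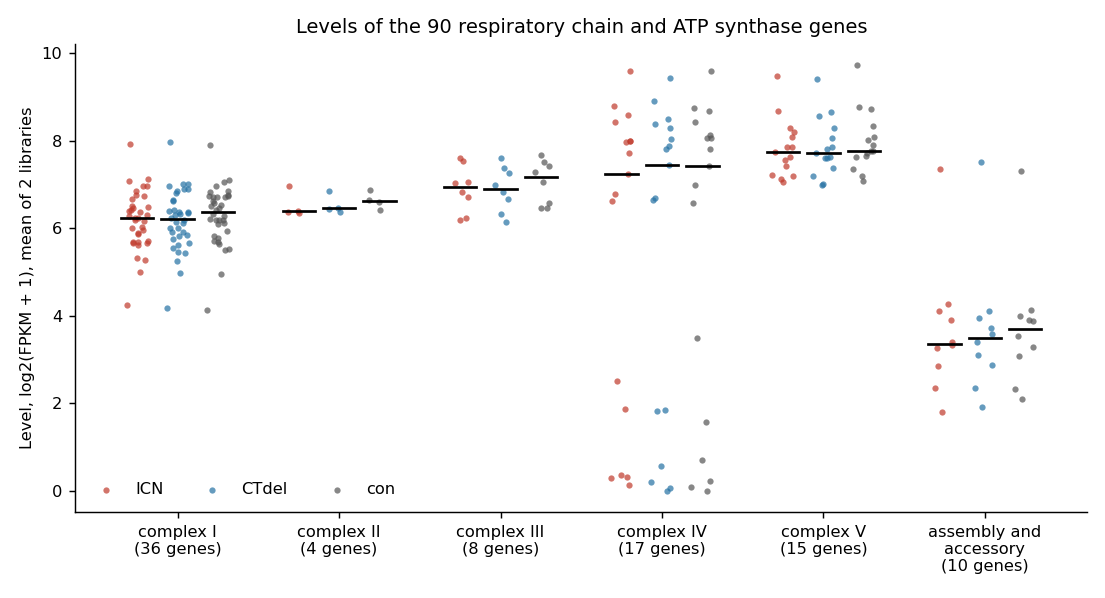
Each point is 1 gene, drawn at its mean log2(FPKM + 1) over the 2 libraries of a group, and the bars are medians of ICN, CTdel and con genes. The bars of ATP synthase are highest, those of the assembly and accessory genes lowest, and 6 tissue isoforms of complex IV lie below the other complex IV genes.

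Taken over all genes of a complex, ATP synthase had the highest median level. Its median gene was at 213 ± 10.8 FPKM in ICN, 209 ± 2.92 FPKM in CTdel and 217 ± 35.9 FPKM in con (SD, n = 2 libraries each). The most abundant gene was Atp5b, the catalytic beta subunit, with 700.4 and 727 FPKM in ICN, 703 and 651 FPKM in CTdel, against 771 and 917 FPKM in con. Both ICN and both CTdel libraries lay under both con libraries. It ranked 100th among the 16799 genes present in both tables, with Cox8a, a small subunit of complex IV, just behind at 101st. The lowest gene of the complex, Atp5k (subunit e), still averaged 131 FPKM, so its range from lowest to highest gene was 5.69-fold.

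Complex IV had a median of 255 ± 65.4 FPKM in ICN, 260 ± 22.2 FPKM in CTdel and 279 ± 19.8 FPKM in con (SD, n = 2 each) over its 11 common subunits. Its most abundant gene, Cox8a, was at 777 and 756 FPKM in ICN, 719.8 and 657 FPKM in CTdel, and 740.2 and 802 FPKM in con. Both CTdel libraries were lower than the other 4. Cox8a and Atp5b held ranks 1 and 2 of the 90 genes in every library, Cox8a being first in the 4 ICN and CTdel libraries and Atp5b first in both con libraries.

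Complexes I, II and III were lower. The median gene of complex III was at 117 ± 21.0 FPKM in ICN, 119 ± 3.62 FPKM in CTdel and 142 ± 30.1 FPKM in con. Complex II was the most even, from 81.9 FPKM for Sdhb, its iron-sulfur subunit, to 117 FPKM for Sdhd, a membrane anchor, a 1.43-fold range. The median gene of complex I was at 73.9 ± 2.31 FPKM in ICN, 72.2 ± 2.32 FPKM in CTdel and 82.9 ± 9.88 FPKM in con (SD, n = 2 each). Within complex I the 7 conserved core subunits, which carry the flavin and the iron-sulfur clusters, had a median of 70.9 FPKM and the 29 supernumerary subunits 78.6 FPKM, from 17.1 FPKM for Ndufa11 to 243 FPKM for Ndufb8. Assembly factors are needed only while a complex is built, and any tie of this role to their levels was not tested. Of the 10 assembly and accessory genes, 9 averaged between 2.84 FPKM (Atp5s, counted here as accessory) and 16.1 FPKM (Atp5sl). The exception was Cox7a2l, a factor that joins complexes III and IV, at 167 FPKM.

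**Figure D2:**
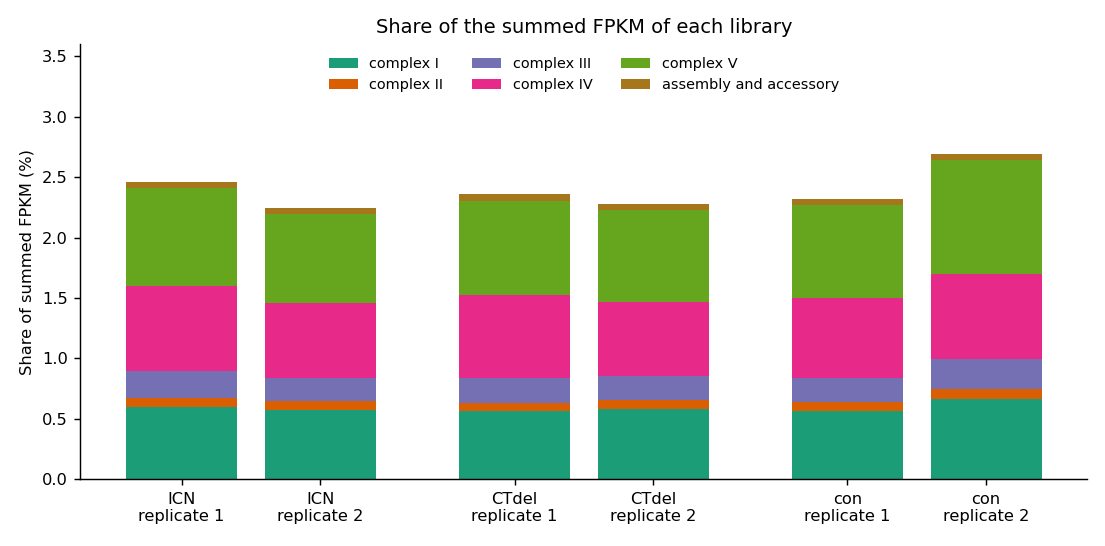
Stacked bars show the percent of the summed FPKM of each library that fell on each complex, for ICN, CTdel and con. The total stands between 2.24% and 2.69%, and con replicate 2 has the tallest bar.

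The check of the transfected gene and of the cells was as follows. Notch1 was at 190.02 and 888 FPKM in ICN and 84.9 and 25.4 FPKM in CTdel, against 0.89 and 1.72 FPKM in con. FPKM summed to 489693 to 507894 per library, and relative depth, read from the smallest values of short RNA genes, was 0.963 to 1.08 of con replicate 1; read totals are unknown. Of the genes listed as pro-B markers, Ptprc (CD45), which is not confined to B cells, was at 32.6 to 255 FPKM. Cd79b was at 3.62 to 13.4 FPKM, Cd79a reached 3.15 FPKM, and Ebf1, Igll1 and Vpreb1 stayed at or under 0.37 FPKM. The labelled pro-B identity thus had little marker RNA behind it. Ptprc moved with the groups, at 142 and 83.6 FPKM in ICN, 255 and 178 FPKM in CTdel, and 77.6 and 32.6 FPKM in con. Of the 3 genes tested from the pro-B list, limma called 1 as higher in CTdel against con and 0 in ICN against con. These 3 included Ptprc, so the count is no measure of pro-B identity. Markers of other cells moved too. The 8 myeloid markers summed to 311 and 193 FPKM in ICN, 565 and 599 FPKM in CTdel, and 102 and 76.3 FPKM in con. Of the 6 tested, 3 rose in CTdel against con, while 2 of the 8 stayed below 1 FPKM throughout. The 2 mast cell markers measured summed to 114 and 80.4 FPKM in ICN, 79.3 and 63.4 FPKM in CTdel, and 264 and 198 FPKM in con, and both fell in CTdel. The 5 erythroid and megakaryocyte markers measured summed to 249 and 451 FPKM in ICN, 203 and 348 FPKM in CTdel, and 280.0 and 708 FPKM in con, lower in ICN and CTdel within each replicate and highest in con replicate 2, with 0 of the 4 tested called. All 6 T-cell markers measured stayed below 1 FPKM. Summed histone genes, whose transcripts lack a poly-A tail, were at 394 and 1311 FPKM in ICN, 410.3 and 1034 FPKM in CTdel, and 203 and 903 FPKM in con, higher in each replicate 2. Their part in the results below was not tested.

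No gene of the respiratory chain or ATP synthase differed between the groups past the threshold. Of the 90, 86 reached 1 FPKM in 2 or more libraries and were tested among 11050 genes with limma on log2(FPKM + 1), called at a Benjamini-Hochberg adjusted p under 0.05. In ICN against con limma called 0 of the 86, against a background of 4 genes or 0.0362%. In CTdel against con it called 0 of the 86, against 156 genes or 1.41%, and in CTdel against ICN 0 of the 86, against 2 genes or 0.0181%. At an unadjusted p under 0.05 the limma counts were also 0 of 86 in each comparison, while 15.0%, 11.8% and 7.13% of tested genes passed in ICN against con, CTdel against con and CTdel against ICN. Both comparisons with con use the same con libraries. RNA is measured here per sample, so fewer cells of a kind and less RNA per cell cannot be told apart.

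The intervals, which are not adjusted for the number of genes, say how large a difference could have been missed. For 79 of the 86 tested genes in ICN against con, or 91.9%, the 95% interval of limma lay wholly within 1 log2 unit of no change; among all tested genes 59.9% did so. In CTdel against con it was 80 of 86 (93.0%, against 67.2%), and in CTdel against ICN 83 of 86 (96.5%, against 68.5%). The median interval reached 0.54 to each side in these genes and 0.59 in all tested genes, so widths were close. Intervals that passed 1 log2 unit included Cox6a2, Atp5g3, Uqcr11, Ndufb2 and Ndufaf4 against con in both forms. Intervals wholly inside 0.5 log2 units were rare, with 2, 2 and 3 genes in the 3 comparisons, so shifts of that size could not be seen gene by gene. A call took more than that. In ICN against con 765 tested genes had a mean change over 1 log2 unit in size, and limma called 4 genes. In CTdel against con 669 had such a change, and limma called 156.

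**Figure D3:**
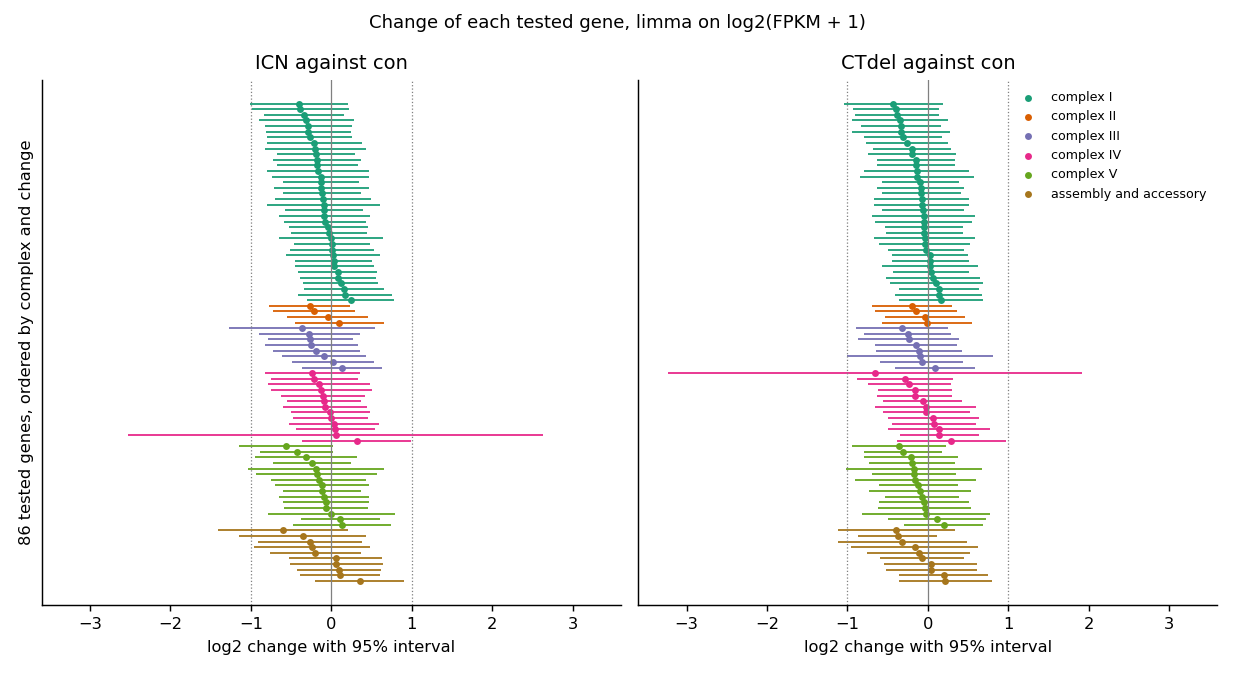
Each line is the limma 95% interval and each dot the log2 change of 1 of the 86 tested genes, coloured by complex, for ICN against con on the left and CTdel against con on the right. All lines cross 0, and 79 and 80 of them lie within the dotted lines at -1 and 1; the single very wide line in each panel is Cox6a2.

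The median change of the 90 genes was small, and it depended on the replicate. In ICN against con it was -0.10 over both replicates, against 0.00 for all tested genes, made of 0.10 in replicate 1 and -0.33 in replicate 2. In CTdel against con it was -0.09, against -0.06 for all tested genes, made of 0.03 in replicate 1 and -0.25 in replicate 2. In CTdel against ICN it was -0.01, against -0.04. Of the 90 genes, 58 were higher in ICN than in con in replicate 1 and 21 in replicate 2, and 56 had opposite signs in the 2 replicates. Among the 11050 tested genes these counts were 5706, 5670 and 4741. For CTdel the counts were 49 and 17, with 45 of opposite sign, against 4721, 5227 and 4122 of the 11050 tested genes.

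The con libraries themselves differed. Of the 90 genes, 65 were higher in con replicate 2 than in con replicate 1, with a median difference of 0.24 log2 units. Among the 11050 tested genes 5170 were higher, with a median of -0.03. In complex I this difference had a median of 0.31, in complex V 0.29 and in complex IV 0.02. Replicate 2 against replicate 1 gave a median of -0.13 in ICN and -0.06 in CTdel. The lower values of ICN and CTdel in replicate 2 are thus set against a con library with higher values of these genes.

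**Figure D4:**
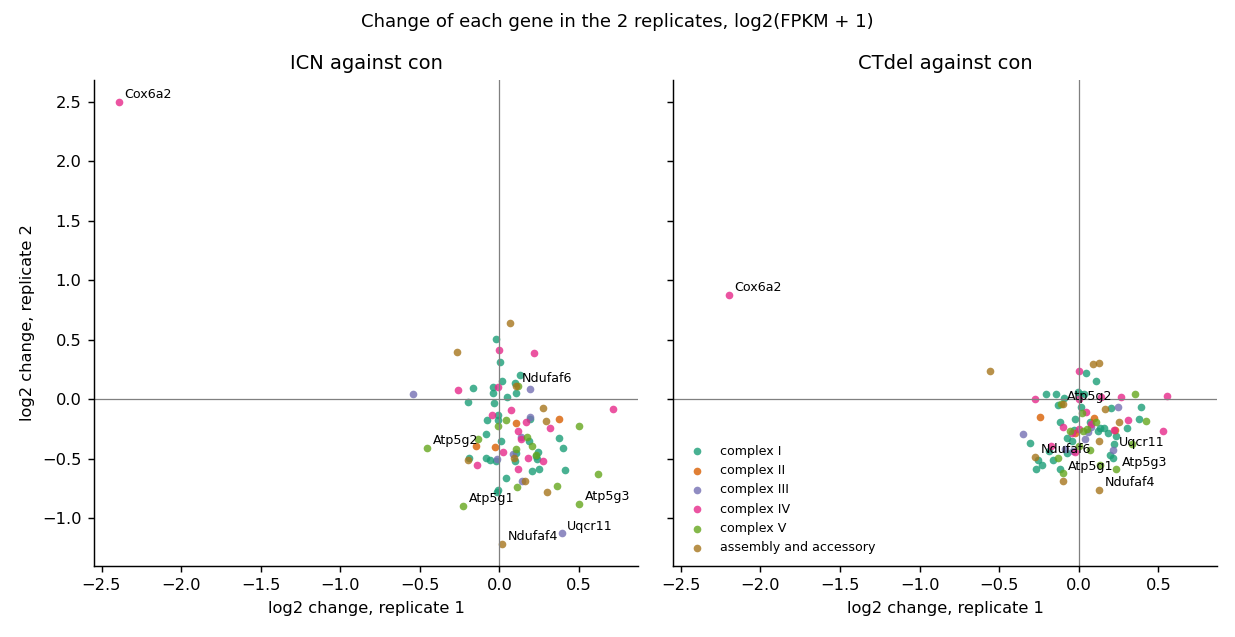
Each point is 1 gene, with its log2 change in replicate 1 across and in replicate 2 up the page, for ICN against con on the left and CTdel against con on the right. Most points lie right of 0 and under 0 for ICN (58 positive in replicate 1, 21 in replicate 2), and Cox6a2 stands far from the others.

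Across the 90 genes the 2 replicates of the ICN change had a Pearson's r of -0.61 and a Spearman's rho of -0.24. For CTdel the values were -0.29 and 0.13. Cox6a2 lay far from the other genes, with ICN changes of -2.39 in replicate 1 and 2.5 in replicate 2. Its CTdel changes were -2.2 and 0.88. Such a gene weighs more on Pearson's r than on rho, which uses ranks. Pearson's r without Cox6a2 was not computed, so -0.61 and -0.29 need not hold for the other genes. Over the 11050 tested genes Pearson's r was 0.35 for ICN and 0.57 for CTdel, and rho was 0.25 and 0.37. Genes of a library share its depth and composition and are not replicates, so these values describe the libraries only.

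The libraries of 2 groups seldom separated fully. In ICN both libraries lay above both con libraries for 4 of the 90 genes and below for 14, together 20.0% of them; in all tested genes this held for 22.7% above and 19.6% below. In CTdel it was 4 above con and 18 below, together 24.4%, against 18.3% and 23.5%. Between CTdel and ICN it was 4 above and 8 below, together 13.3%, against 15.6% and 25% of tested genes. Atp5b, Atp5g1, Ndufa2, Ndufb2, Ndufb4, Ndufc2 and Sdhc lay below con in both forms and Atp5e and Atp5sl above it, though both forms are set against the same con libraries. The share of all tested genes that did so in both forms was not counted. These names therefore show no shift particular to this set.

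By complex the medians in ICN against con were -0.10 for complex I, -0.13 for complex II, -0.22 for complex III, -0.08 for complex IV, -0.12 for complex V and -0.07 for the assembly and accessory genes. In CTdel against con they were -0.08, -0.09, -0.13, -0.03, -0.12 and -0.09 in the same order. In the ICN comparison every one of these groups had a positive median in replicate 1 and a negative one in replicate 2.

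Complex I oxidises NADH and begins the main path of electrons. Its gene with the lowest change was Ndufb2, a supernumerary subunit of the membrane arm, with 47.2 and 30.6 FPKM in ICN, 39.4 and 35.1 FPKM in CTdel, against 47.8 and 53.1 FPKM in con. The first ICN library was within 1 FPKM of the first con library, and the CTdel libraries were both lower. The change was -0.40 in ICN (adjusted p = 0.468, limma) and -0.43 in CTdel (adjusted p = 0.624, limma), neither past the threshold. Ndufb4 of the same arm was at 89.2 and 86.6 FPKM in ICN, 77.0 and 84.5 FPKM in CTdel, and 90.7 and 124 FPKM in con, a change against con of -0.27 for ICN (adjusted p = 0.565, limma) and -0.39 for CTdel (adjusted p = 0.608, limma). Ndufc2 was at 85.6 and 79.3 FPKM in ICN, 78.9 and 86.8 FPKM in CTdel, and 97.9 and 112 FPKM in con, and its change was -0.34 in each form (adjusted p = 0.445 and 0.633, limma). All 4 libraries of ICN and CTdel lay under con for these 3 genes.

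In the other direction Ndufa7 was at 122 and 144 FPKM in ICN, 128 and 118 FPKM in CTdel, and 124 and 101 FPKM in con, so the groups overlapped; its change was 0.24 in ICN (adjusted p = 0.607, limma). Ndufa3 had the highest change of complex I in CTdel, 0.16, with 121 and 89.4 FPKM in ICN, 139 and 96.2 FPKM in CTdel, and 106 and 101 FPKM in con. The 7 core subunits had median changes of -0.13 in ICN and -0.15 in CTdel, and no core subunit was called. Ndufa13, also known as GRIM-19, was nearly level, with 47.6 and 48.4 FPKM in ICN, 49.2 and 47.2 FPKM in CTdel, and 48.7 and 49.3 FPKM in con; it was picked after its values were seen.

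Complex II is at once an enzyme of the citrate cycle and has no subunit from mitochondrial DNA. Sdha, the flavoprotein that oxidises succinate, was at 83.9 and 79.5 FPKM in ICN, 78.3 and 94.2 FPKM in CTdel, and 93.1 and 104 FPKM in con. Both ICN libraries lay below con, while CTdel overlapped con. Its changes were -0.27 and -0.20 in ICN and CTdel (adjusted p = 0.544 and 0.804, limma). Sdhc, a membrane anchor, was at 89.8 and 76.4 FPKM in ICN, 90.05 and 83.2 FPKM in CTdel, and 91.5 and 101 FPKM in con. The changes of Sdhb were -0.05 in ICN and -0.03 in CTdel, and those of Sdhd 0.10 in ICN and -0.01 in CTdel, with no call.

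Complex III passes electrons from coenzyme Q to cytochrome c. Uqcr11, one of its smallest subunits, was at 167 and 96.2 FPKM in ICN, 148 and 157 FPKM in CTdel, against 127 and 211 FPKM in con. The ICN value was above con in replicate 1, by 0.39, and below it in replicate 2, by -1.13, and its mean of -0.37 had a wide interval of -1.27 to 0.54 (adjusted p = 0.638, limma). Without ICN replicate 1 this gene was called as lower in ICN, at -0.97 (adjusted p = 0.0346, limma), the sole call of these genes in that comparison. In that fit 1772 of 10901 genes were called, and ICN was then 1 library, assumed to vary like the other groups. Uqcrfs1, the Rieske iron-sulfur protein that hands on the electron, was at 74.5 and 68.7 FPKM in ICN, 78.5 and 80.5 FPKM in CTdel, and 75.3 and 97.6 FPKM in con. Both ICN libraries were lower than con, and the CTdel libraries lay between the con values. Uqcrq was lower in CTdel, at 68.6 and 70.0 FPKM, than in con, at 87.7 and 85.98 FPKM, with ICN at 59.9 and 88.8 FPKM on either side; the CTdel change of -0.32 had an adjusted p of 0.693 (limma). Uqcrc2, a core protein, had the highest change of the complex, 0.14 in ICN and 0.09 in CTdel, with no call.

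Complex IV reduces oxygen to water, and several of its subunits exist as isoforms of different tissues. The common isoform took nearly all RNA of each pair in all libraries: Cox4i1 99.83% or more beside Cox4i2, Cox6b1 99.88% or more beside Cox6b2, Cox8a 99.96% or more beside Cox8b, Ndufa4 99.90% or more beside Ndufa4l2, and Cox7a2 97.4% to 98.8% beside Cox7a1. Cox4i2, Cox6b2, Cox8b and Ndufa4l2 did not pass the filter on low values and stayed at or under 0.70 FPKM in every library. Cox8b was listed at 0 in the 4 CTdel and con libraries and at 0.16 and 0.31 FPKM in ICN. Of the 11 common subunits, 9 had a negative mean change in ICN and 7 in CTdel, beside 5507 and 6390 of the 11050 tested genes. The lowest was Cox7a2, with 135 and 83.6 FPKM in ICN, 110.1 and 95.6 FPKM in CTdel, and 124 and 126 FPKM in con. That gene's ICN libraries lay on both sides of con and its CTdel libraries below, with changes of -0.23 and -0.28 (adjusted p = 0.647 and 0.751, limma). Cox4i1, a subunit that joins early in assembly, was at 437 and 449 FPKM in ICN, 529 and 421 FPKM in CTdel, and 439 and 416 FPKM in con.

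Cox6a2, the heart and skeletal muscle isoform, had the changes that lay farthest apart between replicates. It was at 3.05 and 6.36 FPKM in ICN, 3.64 and 1.39 FPKM in CTdel, against 20.3 and 0.30 FPKM in con. The con libraries held both the highest and the lowest of the 6 values. The ICN change was -2.39 in replicate 1 and 2.5 in replicate 2, and the mean of 0.05 had an interval of -2.52 to 2.63 (adjusted p = 0.985, limma). In con replicate 1 it took 5.76% of the RNA of Cox6a1 and Cox6a2 together, against 0.062% in con replicate 2 and 0.334% to 1.41% in the ICN and CTdel libraries. In CTdel against ICN the change was -0.71 (adjusted p = 0.875, limma), and without ICN replicate 1 it was called as lower, at -2.39 (adjusted p = 0.0247, limma), in a fit with 1 ICN library that called 1226 of 10901 genes. Cox7a1, the other muscle isoform that passed the filter, was at 3.04 and 2.26 FPKM in ICN, 2.62 and 2.51 FPKM in CTdel, and 1.46 and 2.45 FPKM in con, with changes of 0.32 and 0.29 (adjusted p = 0.593 and 0.782, limma). Beside these, 5 muscle markers summed to 50.1 and 54.0 FPKM in ICN, 50.8 and 60.3 FPKM in CTdel, and 67.3 and 58.2 FPKM in con. Only 1 of the 5 passed the filter on low values, and 2 stayed below 1 FPKM in every library. The sum is thus not that of 5 expressed muscle genes.

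In ICN against con the lowest mean changes of any tested subunit were in ATP synthase, in the ring of subunit c through which protons pass. Atp5g1 (chr11:96072793-96075694), Atp5g2 (chr15:102662868-102671047) and Atp5g3 (chr2:73908447-73912464) encode the same mature protein with different import sequences. Atp5g1 was at 159.6 and 129.9 FPKM in ICN, 174 and 157 FPKM in CTdel, against 187 and 243 FPKM in con. All 4 libraries of ICN and CTdel lay below both con libraries, with ICN below CTdel in each replicate. The change was -0.56 in ICN, with an interval of -1.15 to 0.02 (adjusted p = 0.343, limma), the smallest adjusted p of the 86 genes in that comparison, and -0.36 in CTdel (adjusted p = 0.668, limma).

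Atp5g2 was at 334 and 291 FPKM in ICN, 424 and 377 FPKM in CTdel, against 458 and 387 FPKM in con. Both ICN libraries lay below the other 4, and its changes against con were alike in both replicates, -0.45 and -0.41. The mean of -0.43 had an interval of -0.89 to 0.03 (adjusted p = 0.349, limma), and CTdel against con gave -0.07 (adjusted p = 0.931, limma). In CTdel against ICN it was 0.36, with an interval of -0.10 to 0.81 (adjusted p = 0.705, limma). In Atp5g3 the groups overlapped, with 308 and 229 FPKM in ICN, 255 and 279.8 FPKM in CTdel, against 217 and 421 FPKM in con. The con libraries lay outside all others, and the ICN change was 0.50 in replicate 1 and -0.88 in replicate 2. Summed, the 3 genes were at 801 and 650.1 FPKM in ICN, 854 and 814 FPKM in CTdel, and 862 and 1051 FPKM in con. The ICN sums were thus the lowest within each replicate, by -0.10 and -0.69 log2 units against con.

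**Figure D5:**
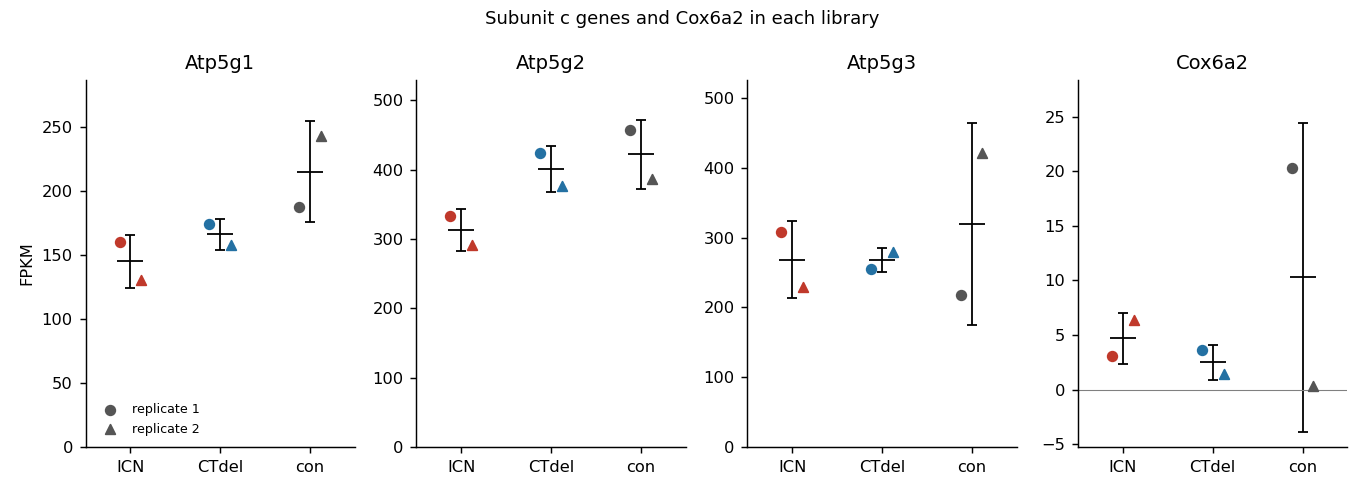
FPKM of the 3 subunit c genes and of Cox6a2 in each library, with circles for replicate 1 and triangles for replicate 2, and bars for the mean and SD of the 2 libraries of ICN, CTdel and con. Atp5g1 and Atp5g2 are lowest in ICN, while the con libraries of Atp5g3 and Cox6a2 lie farthest apart.

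The upstream sequences of Atp5g1 and Atp5g3 are shown since the genes share a product. Their ICN changes differed in replicate 1, at -0.23 and 0.50, and were alike in replicate 2, at -0.90 and -0.88. This difference was not tested. The bases run 5′ to 3′ on the minus strand of both genes, from 250 bases before the start. GENCODE exons were left out, and CCAAT or its reverse ATTGG is in capitals.
Atp5g1, chr11:96075695-96075881, minus strand: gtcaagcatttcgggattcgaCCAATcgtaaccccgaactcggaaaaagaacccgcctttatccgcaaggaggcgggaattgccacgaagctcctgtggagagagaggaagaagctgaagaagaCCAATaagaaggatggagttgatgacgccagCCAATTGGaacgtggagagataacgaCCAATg
Atp5g3, chr2:73911327-73911576, minus strand: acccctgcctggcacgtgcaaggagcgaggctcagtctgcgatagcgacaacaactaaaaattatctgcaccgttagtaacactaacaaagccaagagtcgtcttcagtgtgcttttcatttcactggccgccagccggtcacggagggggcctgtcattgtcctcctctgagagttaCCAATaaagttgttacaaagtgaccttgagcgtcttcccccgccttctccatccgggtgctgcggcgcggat

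The Atp5g1 stretch held 5 CCAAT letters, 2 of them overlapping on opposite strands, the Atp5g3 stretch 1, and Atp5g2 the NRF-1 palindrome printed above. The Atp5g3 stretch lies inside the span that RefSeq gives the gene and holds no GENCODE exon, and RefSeq exons were not looked up there. The Atp5g1 stretch lies just upstream of the RefSeq span. No value here ties these letters to the levels.

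The other ATP synthase parts had small mean changes. Of the catalytic head, Atp5b had a change against con of -0.24 for ICN (adjusted p = 0.578, limma) and -0.31 for CTdel (adjusted p = 0.650, limma), while Atp5e, the small epsilon subunit, was at 298 and 291 FPKM in ICN, 349.9 and 278 FPKM in CTdel, and 274 and 269 FPKM in con. All 4 libraries of ICN and CTdel lay above con for Atp5e, by 0.12 and 0.20 (adjusted p = 0.799 and 0.797, limma). The 4 peripheral stalk genes, which hold the head still, had median changes of -0.14 in ICN and -0.18 in CTdel, and the 3 other membrane subunits -0.00 and -0.02. These means joined opposite replicates: in ICN the stalk genes had a median of 0.20 in replicate 1 and -0.44 in replicate 2, and the other membrane subunits 0.50 and -0.39. Atp5k was the plainest case, with 0.62 in replicate 1 and -0.62 in replicate 2. Of the membrane subunits, Atp5j2 (subunit f) had the highest ICN change of the complex, 0.14, with 219 and 206 FPKM in ICN, 207 and 211 FPKM in CTdel, and 155 and 241 FPKM in con.

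Among assembly factors, Ndufaf4 of early complex I assembly had the lowest mean change of all 90 genes in ICN. It was at 12.3 and 5.95 FPKM in ICN, 13.3 and 8.5 FPKM in CTdel, against 12.1 and 15.1 FPKM in con. The 3 first replicates were close, and the difference came from the second. The change was -0.60 in ICN, with an interval of -1.40 to 0.20 (adjusted p = 0.420, limma), and -0.32 in CTdel (adjusted p = 0.803, limma). Ndufaf6 was at 7.31 and 11.6 FPKM in ICN, 5.40 and 7.35 FPKM in CTdel, against 6.73 and 10.7 FPKM in con, the lowest in CTdel within each replicate. It had the smallest p of the 90 genes in CTdel against con, with a change of -0.38 (adjusted p = 0.586, limma), and in CTdel against ICN, with -0.49 and an interval of -0.98 to 0.01 (adjusted p = 0.705, limma). Ndufaf2, which acts late in complex I assembly, was at 17.3 and 10.7 FPKM in ICN, 12.9 and 11.4 FPKM in CTdel, and 13.8 and 19.1 FPKM in con. Its CTdel change of -0.39 was not past the threshold (adjusted p = 0.706, limma).

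Atp5sl, listed in RefSeq as Dmac2 and named for assembly of the complex I membrane arm, was the one complex I assembly factor with both libraries of each form above both con libraries. It was at 15.1 and 21.6 FPKM in ICN, 15.3 and 16.8 FPKM in CTdel, and 14.4 and 13.5 FPKM in con. Its changes were 0.35 and 0.19 (adjusted p = 0.474 and 0.830, limma). Cox7a2l was at 152 and 173 FPKM in ICN, 200.2 and 162 FPKM in CTdel, and 183 and 131 FPKM in con, with all groups overlapping. Small members of these families have near-identical copies elsewhere in the genome, and how reads were shared among copies is not given, so their levels are uncertain to that extent.

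Genes that serve the chain gave the same count. Of 44 assembly factors and chain genes outside the symbol rule, 43 were tested and limma called 0 in each comparison; the medians were -0.12 in ICN and -0.18 in CTdel. Their 3 genes of smallest p were Sco2, a copper carrier for complex IV, Bcs1l, which places the Rieske protein, and Pet117. Sco2 was at 12.6 and 15.2 FPKM in ICN, 10.1 and 10.51 FPKM in CTdel, and 15.1 and 17.6 FPKM in con, with CTdel below con by -0.61 (adjusted p = 0.288, limma). Bcs1l was at 4.9 and 5.75 FPKM in ICN, 6.33 and 8.31 FPKM in CTdel, and 7.37 and 9.80 FPKM in con, a change of -0.59 in ICN (adjusted p = 0.285, limma). Pet117, an assembly factor of complex IV, went the other way, with 1.92 and 1.37 FPKM in ICN, 2.43 and 4.88 FPKM in CTdel, and 1.44 and 1.24 FPKM in con. Both CTdel libraries lay above con, by 0.94 (adjusted p = 0.339, limma), and ICN lay close to con.

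Of 16 regulators of mitochondrial gene expression, 15 were tested and 0 called, with medians of -0.05 and -0.07. Polg, the polymerase that copies mitochondrial DNA, was at 19.3 and 19.3 FPKM in ICN, 16.1 and 19.1 FPKM in CTdel, against 28.5 and 33.5 FPKM in con. Its groups did not overlap, and the changes of -0.65 and -0.78 had adjusted p of 0.259 and 0.175 (limma). The 18 citrate cycle genes had 0 calls and medians of -0.31 in ICN and -0.21 in CTdel, of which the ICN value joined 0.04 in replicate 1 and -0.55 in replicate 2. Mdh2, a malate dehydrogenase, lay on the other side in CTdel, with 221 and 234 FPKM in ICN, 309.9 and 639 FPKM in CTdel, and 229.8 and 323 FPKM in con; its CTdel change was 0.71 against con (adjusted p = 0.395, limma), with the groups overlapping. The 11 genes of coenzyme Q synthesis had 0 calls and medians of -0.25 and -0.30. Coq4, needed for coenzyme Q synthesis, was at 5.90 and 6.64 FPKM in ICN, 5.02 and 5.19 FPKM in CTdel, and 8.19 and 11.4 FPKM in con, with changes of -0.56 and -0.81 (adjusted p = 0.322 and 0.191, limma). The 77 mitochondrial ribosomal protein genes, whose products make the mitochondrially encoded subunits, had 0 calls and medians of -0.19 in ICN (0.08 in replicate 1, -0.49 in replicate 2) and -0.16 in CTdel (0.03 and -0.37), and 68 of the 77 were higher in con replicate 2 than in con replicate 1. The 85 cytosolic ribosomal protein genes had 0 calls and medians of -0.11 and -0.00, and 15 of the 85 were higher in con replicate 2.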

How the data were processed

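Per the labels' protocols, an MGIEasy mRNA kit was used for the libraries. RSEM, HISAT2 and Bowtie2, with mm10 and hg19 as builds, are listed without roles or versions in the submitters' processing notes. Per the file headers, the authors deposited FPKM per gene, in 1 table for replicate 1 (17877 genes) and 1 for replicate 2 (17868 genes). FPKM keep no read totals, so depth and detection limits are unknown, and precision rests on 2 libraries a group. Symbols that had become dates (26) were restored from gene IDs.

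log2(FPKM + 1) was fitted with limma 3.58.1 (R 4.3.3), with an intensity trend, over the 11050 genes that reached 1 FPKM in 2 or more libraries. The 3 groups and the table (replicate number, used as a block because the tables are separate) were terms, which left 2 residual degrees of freedom; p-values are 2-sided and Benjamini-Hochberg adjusted over all tested genes. Across genes, same-numbered libraries deviated together with r of -0.10 (ICN and con), 0.33 (CTdel and con) and 0.24 (CTdel and ICN). Fold changes on this scale understate changes of low genes.

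Members and gene lists were chosen with earlier results of these data known. Genes were named as the highest, the lowest and the most extreme or smallest-p gene of each complex, isoform families, and up to 3 genes of smallest p of each other list; others, such as Ndufa13, were named after their values were seen. Genome positions and promoters are RefSeq's for GRCm38.p6. The fit was tried on simulated data with independent noise and no replicate effect. The real libraries differ from that setting, so the trial is no measure of error rates here. Alternatives covered the block, pseudocount, filter, scaling, threshold, libraries fitted and each library left out. Python 3.11.15 with pandas 2.3.3, numpy 2.4.6 and matplotlib 3.10.9 made summaries and figures. Of the pro-B markers, 1 is not reported here.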

Additional observations from a re-analysis of the deposited data

How the results depend on the processing

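The count of respiratory chain genes called stayed at 0 in every comparison and alternative run, except that leaving out ICN replicate 1 called 1 gene in ICN against con (Uqcr11, range over libraries left out 0 to 1) and 1 in CTdel against ICN (Cox6a2, range 0 to 1). Without the replicate block, limma called 0 of them in each comparison and 3, 130 and 2 genes in all for ICN against con, CTdel against con and CTdel against ICN. The median change moved between -0.28 (without con replicate 1) and 0.07 (without con replicate 2) in ICN against con, between -0.26 and 0.03 with the same libraries left out in CTdel against con, and between -0.13 (without ICN replicate 2) and 0.13 (without ICN replicate 1) in CTdel against ICN, so its sign rests on single libraries. The background count was less stable. At an adjusted p under 0.1 it was 11 in ICN against con and 262 in CTdel against con; without a filter it was 0 in all 3 comparisons; with only the 4 libraries compared it was 253, 866 and 13. In CTdel against ICN it was 1 with FPKM of at least 5 and 0 with a pseudocount of 0.1. With a library left out it ran from 15 to 1772 in ICN against con, from 137 to 851 in CTdel against con and from 3 to 1226 in CTdel against ICN, the highest without ICN replicate 1 (ICN against con, CTdel against ICN) or ICN replicate 2 (CTdel against con). The cause was not tested. Of 1323 alternative values of 34 named genes, none of them called to begin with, 2 became calls and 108 moved, such as Atp5g3 in ICN against con, which turned from -0.19 to 0.36 without con replicate 2 and 0.30 without ICN replicate 2. The median was taken over all 90 genes and so has no value under another filter. With 2 libraries a group and unknown depth, shifts under about 0.5 log2 units could not be resolved for single genes. Larger ones could also go uncalled, as did most tested genes with a mean change over 1 log2 unit against con.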

Other observations

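Mitochondrial genes outside the chain were also read in the 6 libraries. Of 24 genes of mitochondrial membrane transport and protein import, limma called 0 in each comparison, and the medians were -0.33 in ICN against con and -0.31 in CTdel against con. Mean changes were below 0 for 23 and 24 of the 24 genes, a larger share than the 5507 and 6390 of the 11050 tested genes. The shift lay mostly in replicate 2: the ICN median was -0.00 in replicate 1, where 12 genes were above 0, and -0.82 in replicate 2, and the CTdel median was -0.09 in replicate 1 and -0.56 in replicate 2. Both libraries lay below both con libraries for 10 genes in ICN and 14 in CTdel, or 41.7% and 58.3%, against 19.6% and 23.5% of tested genes. Hspd1, the chaperonin that folds imported proteins, was at 176 and 86.2 FPKM in ICN, 149.8 and 117 FPKM in CTdel, against 209 and 240.3 FPKM in con. All 4 libraries of ICN and CTdel lay below con, with changes of -0.86 and -0.75 (adjusted p = 0.312 and 0.436, limma). Slc25a3, the phosphate carrier that supplies ATP synthase, was at 335 and 230.2 FPKM in ICN, 357 and 319.8 FPKM in CTdel, against 402 and 432 FPKM in con (-0.59 and -0.30; adjusted p = 0.323 and 0.708, limma). Vdac1, the outer membrane pore, was at 108 and 62.1 FPKM in ICN, 108 and 104 FPKM in CTdel, against 124 and 153 FPKM in con. For these 3 genes, named for the smallest p of the list, both forms lay below con while ICN and CTdel overlapped each other, and none was called.

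Of 10 genes listed for uncoupling and antioxidant defence, 9 were measured and 8 tested. Limma called 0, and the medians of the 9 were -0.06 in ICN and 0.22 in CTdel. Gpx4, which reduces lipid peroxides, was at 275 and 262 FPKM in ICN, 251 and 216 FPKM in CTdel, against 191 and 164 FPKM in con. Its changes were 0.60 and 0.39 (adjusted p = 0.269 and 0.540, limma). Prdx5, a peroxiredoxin, was at 208 and 184 FPKM in ICN, 208 and 187 FPKM in CTdel, against 135 and 139.7 FPKM in con, with changes of 0.51 and 0.52 (adjusted p = 0.322 and 0.382, limma). Aox1, an aldehyde oxidase, was at 2.47 and 3.81 FPKM in ICN, 2.53 and 1.96 FPKM in CTdel, against 0.78 and 0.60 FPKM in con. It is neither an uncoupler nor an antioxidant enzyme, though it was on the list and is part of the medians. Gpx4, Prdx5 and Aox1, named for the smallest p of the list, lay above con in both forms, and none passed the threshold. Over the 9 genes, mean changes were above 0 for 4 in ICN and 7 in CTdel, beside 5539 and 4654 of the 11050 tested genes.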
